A study of Mus musculus with 25 samples.

Results

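The keratin genes are those of the deposited count table whose symbol is Krt followed by a number and at most 1 letter, and the rule found 55 of 24984 genes. By the usual split of the family, 28 of them encode type I (acidic) and 27 type II (basic) keratins. The libraries came from BMEL cells, a clonally derived, non-transformed line of bipotential progenitors from embryonic mouse liver (C57BL/6 by C3H), and from tumours that such cells formed in mice. The 7 groups comprised 3 cultures each of BMEL WT (transduced with an empty vector), RasLOW and RasHIGH cells, and 4 libraries each of liver tumour cells, peritoneal tumour cells, liver stroma and peritoneal stroma. RasLOW and RasHIGH carry HRasG12V from a bicistronic lentiviral vector that also encodes Venus or mCherry, were sorted by fluorescence, and overlap in their oncogene levels. The 9 cultures were growing exponentially on collagen-coated plates. The tumours grew in 4 athymic nude mice (Crl:NU(NCr)-Foxn1nu), whose age is not given in the sources used here, after injection of BMEL cells into the liver, and each mouse gave all 4 sorted fractions. Fluorescence-positive cells are called tumour cells here and fluorescence-negative cells stroma. The study describes the sequenced tumour cells as positive for Venus. Where it compared oncogene levels by site, RasHIGH cells carried Venus and RasLOW cells mCherry, but it also made RasLOW cells with Venus. The labels do not say whether RasLOW or RasHIGH cells had been injected. Nude mice lack mature T cells, so the stroma can hold the host's other leukocytes, endothelial cells, fibroblasts and mesothelial cells.

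Keratins are intermediate filament proteins of epithelial cells, and each filament is built from pairs of 1 type I and 1 type II protein. Hepatocytes make the pair of Krt8 (type II) and Krt18 (type I), bile duct cells and bipotential progenitors add Krt19 and Krt7, and Krt20 and Krt23 belong to other simple epithelia such as the gut lining. Stratified squamous epithelia such as epidermis use other members: Krt5 and Krt14 in the basal layer, Krt1 and Krt10 above it, Krt4 and Krt13 in internal mucosa, and Krt12 in the cornea. Further members build hair and its inner root sheath. Mesothelial cells, which line the peritoneum and the liver surface, make the simple keratins too.

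Total counts per library ran from 20818989 to 51241336, and 3 counts, the smallest number read here as detection, correspond to 0.0576 to 0.141 CPM (counts scaled to a library of 1e+06) according to the library, for counting error only. Levels are CPM after scaling the libraries to one another, with SDs taken across cultures or mice. On the mm9 build, 27 type I genes lie within 1.04 Mb of chromosome 11 (start 99094075, end 100131185), and 22 type II genes together with Krt18 lie within 0.68 Mb of chromosome 15 (start 101177875, end 101862457). The other 5 genes (Krt72, Krt85, Krt87, Krt88 and Krt90) had no position or length in the annotation used. Keratins averaging at least 1 CPM in some group, or called in some comparison, numbered 21 and are described by name. The remaining 34 stayed at or under a group mean of 0.832 CPM, and 4 of them had no count in any library.

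Krt8, Krt18, Krt19 and Krt20 held nearly all keratin counts. Keratin counts made up 0.891% ± 0.0625 of all counts in BMEL WT (SD, n = 3), 0.908% ± 0.129 in RasLOW (n = 3), 0.806% ± 0.0349 in RasHIGH (n = 3), 0.888% ± 0.0847 in liver tumour cells (n = 4) and 1.04% ± 0.0835 in peritoneal tumour cells (n = 4). In stroma the share was 0.130% ± 0.0112 in the liver and 0.0766% ± 0.0135 in the peritoneum (n = 4 each). The 4 genes took 99.1% to 99.4% of keratin counts as group means in cultures and tumour cells, 92.6% in liver stroma and 90.9% in peritoneal stroma. Per kilobase of the longest coding transcript, the level in BMEL WT was 2105 CPM per kb for Krt8, 1786 for Krt18, 1032 for Krt19 and 119 for Krt20. The order in RasHIGH was Krt8 (1682 CPM per kb), Krt19 (1568), Krt18 (1280) and Krt20 (161).

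Summed per kilobase, type I exceeded type II transcripts in every library. The type I sum divided by the type II sum averaged 1.39 (range 1.386 to 1.393) in BMEL WT, 1.57 (1.37 to 1.88) in RasLOW and 1.81 (1.502 to 2.24) in RasHIGH. It averaged 1.56 in liver tumour cells, 1.42 in peritoneal tumour cells, 1.49 in liver stroma and 1.301 in peritoneal stroma. The 3 RasHIGH cultures were all above the 3 BMEL WT cultures in this ratio, while RasLOW overlapped both, and the ratio was not tested. In the 9 cultures, hepatocyte markers were scarce, with the summed level of a list of 10 (albumin, transthyretin and the like) between 15.8 and 58.4 CPM in BMEL WT and between 0.992 and 5.51 CPM in the Ras cultures. The biliary and progenitor marker Sox9 lay between 53.5 and 331 CPM in the 9 cultures. It belongs to a list of 10 bile duct and general epithelial markers, whose summed level ran from 375 to 1484 CPM over the same cultures. Of those 10 markers, 4 to 7 had any count in a given culture, and 4 were tested between RasHIGH and BMEL WT. Neither Sox9 nor this sum therefore shows that bile duct markers as a set were present.

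**Figure D1:**
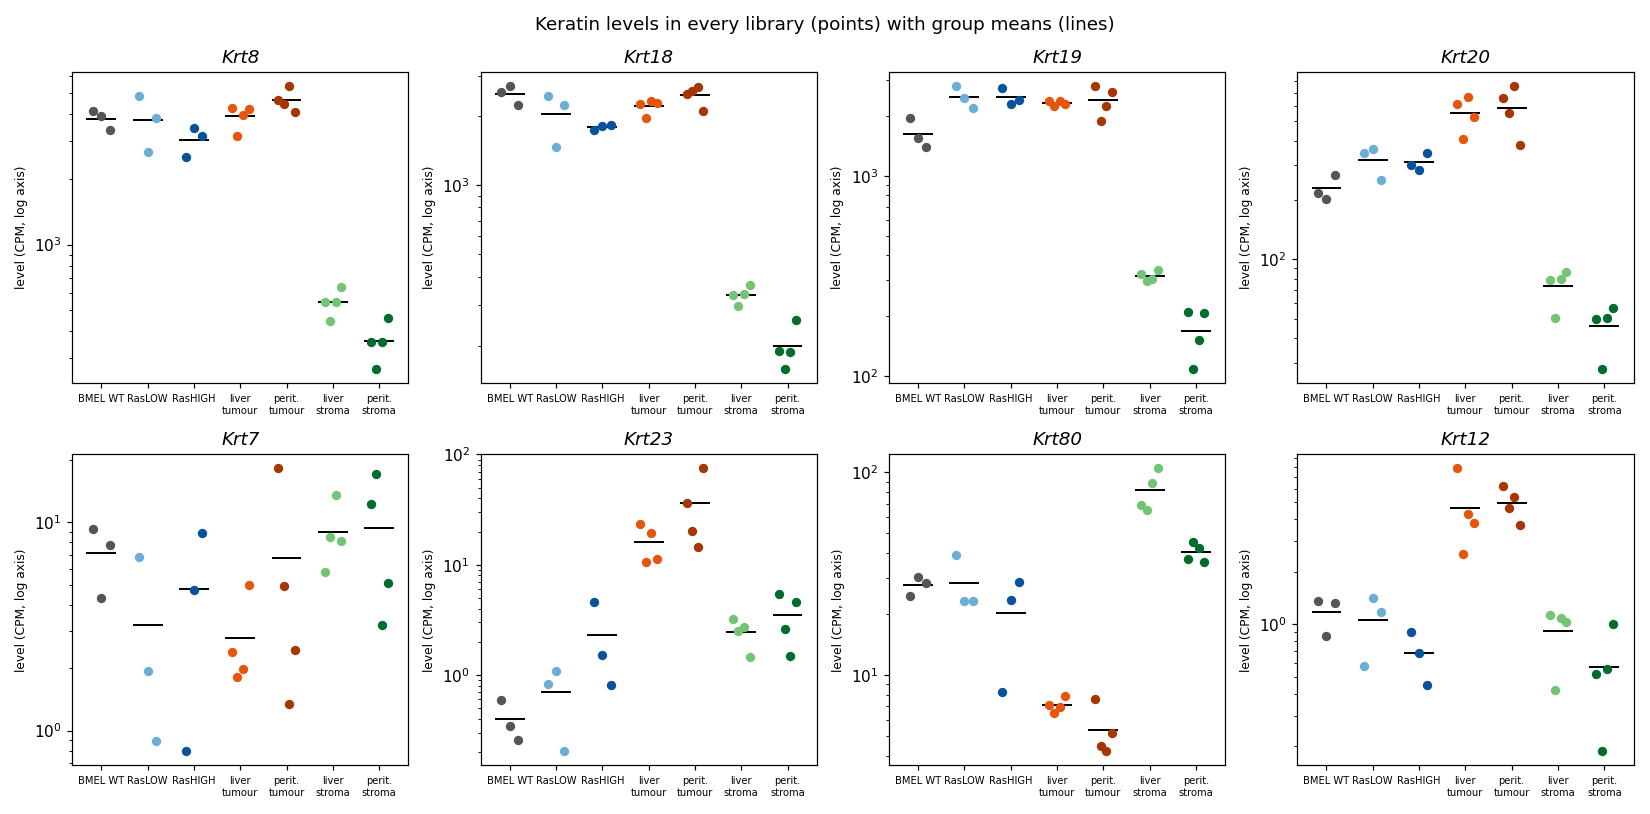
Level of 8 keratin genes (CPM, log axes that differ between panels) in each of the 25 libraries, 1 point per library and 1 line per group mean. Krt8, Krt18, Krt19 and Krt20 are lower in every stromal library than in any culture or tumour library, Krt80 is highest in stroma, and Krt23 and Krt12 are highest in tumour cells.

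RasHIGH against BMEL WT asks what a high oncogene dose does to the cultured progenitors. Several minor keratins of squamous type and Krt19 were higher in RasHIGH, and Krt18 and Krt14 were lower. In the hepatic pair, Krt18 was 2552, 2709 and 2240 CPM in BMEL WT and 1735, 1820 and 1823 CPM in RasHIGH. The groups did not overlap, and Krt18 fell by 0.52 on the log2 scale (SE 0.13, adjusted p = 0.0279, edgeR's quasi-likelihood test, Benjamini-Hochberg adjusted across every gene tested). Its partner Krt8 was 4106, 3915 and 3376 CPM in BMEL WT and 2521, 3430 and 3159 CPM in RasHIGH, overlapping, and was not called. Krt19, the type I keratin of bile ducts, was 1947, 1544 and 1386 CPM in BMEL WT and 2742, 2281 and 2389 CPM in RasHIGH. All RasHIGH cultures were above all BMEL WT cultures, with a log2 fold change of 0.56 (SE 0.16, adjusted p = 0.0475). Krt23, a simple-epithelial type I keratin, stood at 0.594, 0.344 and 0.259 CPM in BMEL WT and 4.59, 1.51 and 0.812 CPM in RasHIGH (log2 fold change 2.47, SE 0.70, adjusted p = 0.0436).

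Among the genes called higher, 3 squamous type II members, Krt76, Krt79 and Krt78, lie near one another at the end of the chromosome 15 cluster. On mm9 the order is Krt76 (start 101714782, end 101723351), Krt4 (101748967, 101755166), Krt79 (101759763, 101770755), Krt78 (101776435, 101784718), Krt8 (101827142, 101834773) and Krt18 (101858647, 101862457), with Krt18 alone on the plus strand. Krt76 is a keratin of oral mucosa, Krt79 of the hair canal and sebaceous duct, and Krt78 of stratified epithelium. The 300-base promoters of Krt76, Krt79 and Krt78, from 250 bases before to 50 bases after each gene's start, are shown because these 3 genes rose in the comparison. They are RefSeq sequences of the GRCm38.p6 build, minus strand, at chr15:101892871-101893170, chr15:101940275-101940574 and chr15:101954238-101954537, in lower case with any match to TATAAA or to TGANTCA, on either strand, in capitals.
Krt76: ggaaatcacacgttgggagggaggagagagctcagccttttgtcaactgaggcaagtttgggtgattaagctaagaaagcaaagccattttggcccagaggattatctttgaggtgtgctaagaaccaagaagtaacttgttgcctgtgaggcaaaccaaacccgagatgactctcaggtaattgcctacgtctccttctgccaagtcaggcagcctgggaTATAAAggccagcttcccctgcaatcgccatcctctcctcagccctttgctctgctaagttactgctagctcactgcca
Krt79: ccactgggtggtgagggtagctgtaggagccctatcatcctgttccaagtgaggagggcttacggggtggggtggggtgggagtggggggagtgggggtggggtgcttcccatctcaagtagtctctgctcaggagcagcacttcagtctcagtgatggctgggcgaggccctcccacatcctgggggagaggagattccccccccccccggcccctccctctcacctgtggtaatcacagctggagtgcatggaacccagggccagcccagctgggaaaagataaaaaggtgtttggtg
Krt78: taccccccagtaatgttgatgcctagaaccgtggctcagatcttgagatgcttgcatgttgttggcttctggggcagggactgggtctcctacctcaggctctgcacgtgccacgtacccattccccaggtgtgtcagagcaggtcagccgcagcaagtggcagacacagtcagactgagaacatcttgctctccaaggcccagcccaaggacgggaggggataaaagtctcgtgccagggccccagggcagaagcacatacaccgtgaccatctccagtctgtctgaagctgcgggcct
TGANTCA, with any base at N, includes the site bound by AP-1, a factor family downstream of Ras signalling, but is wider than it. TGANTCA is absent from all 3 windows. Among all 32851 RefSeq promoters, 7.8% hold it, and among 37 promoters of 36 keratin genes 2 do, both of Krt13. TATAAA begins 29 bases before the start of Krt76 and is absent from the other two. It is in 13.6% of all promoters and in 19 of the 37 keratin promoters (51.4%).

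Krt76 was 0.803, 0.172 and 0.0740 CPM in the 3 BMEL WT cultures, 13.2, 0.525 and 0.851 CPM in RasLOW, and 1.78, 18.2 and 10.1 CPM in RasHIGH. Every RasHIGH culture was above every BMEL WT culture, the first RasHIGH culture least so, and 1 RasLOW culture reached the RasHIGH range. The log2 fold change of RasHIGH against BMEL WT was 4.78 (SE 1.06, adjusted p = 0.019). Krt79 was 7.33, 4.20 and 4.88 CPM in BMEL WT, 47.1, 8.27 and 3.49 CPM in RasLOW, and 6.67, 28.2 and 24.5 CPM in RasHIGH. The first RasHIGH culture lay within the BMEL WT range, and the log2 fold change was 1.82 (SE 0.53, adjusted p = 0.0473). Krt78 was 0.489, 0.310 and 0.444 CPM in BMEL WT, 5.57, 2.07 and 0.608 CPM in RasLOW, and 1.55, 3.27 and 2.71 CPM in RasHIGH. No RasHIGH culture overlapped BMEL WT for Krt78, with a log2 fold change of 2.55 (SE 0.42, adjusted p = 0.00627). The same cultures were high for the 3 genes, namely RasLOW 1, RasHIGH 2 and RasHIGH 3, whereas Krt4, which lies between Krt76 and Krt79, was 1.54, 0.689 and 0.444 CPM in BMEL WT and 0.152, 1.42 and 1.08 CPM in RasHIGH and was not called.

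**Figure D2:**
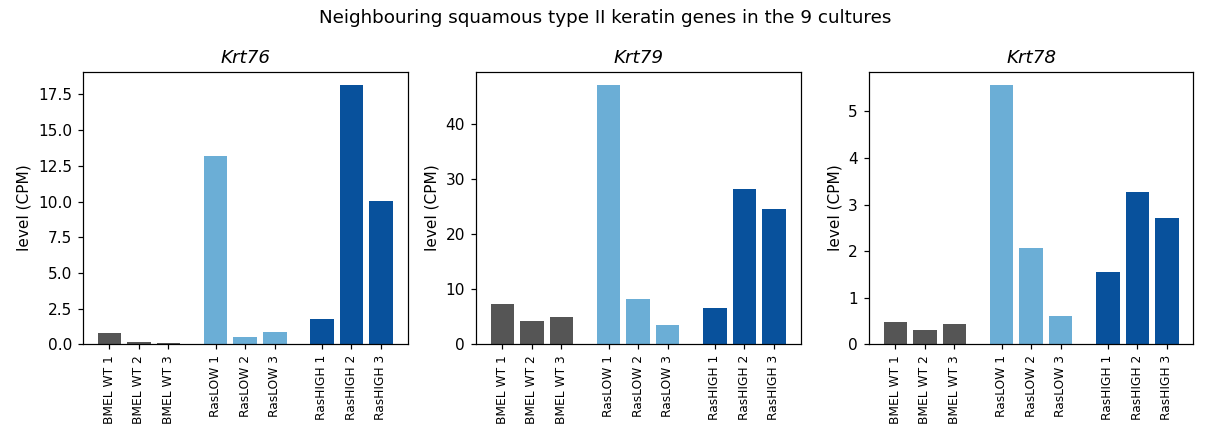
Level (CPM, linear axes from 0) of Krt76, Krt79 and Krt78 in each of the 9 cultures, 1 bar per culture. RasLOW 1, RasHIGH 2 and RasHIGH 3 are high for all 3 genes, and RasHIGH 1 reaches 1.78, 6.67 and 1.55 CPM.

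Of the other squamous and hair members, Krt39, a hair keratin, had 5, 0 and 0 counts in BMEL WT and 12, 20 and 24 counts in RasHIGH (log2 fold change 3.62, SE 0.97, adjusted p = 0.0367). Krt14, the basal epidermal type I keratin, was 0.489, 1.07 and 1.37 CPM in BMEL WT, 3.09, 0.558 and 1.46 CPM in RasLOW, and 0.0379, 0.258 and 0.271 CPM in RasHIGH. RasHIGH was below both other groups without overlap, and Krt14 fell by 2.40 on the log2 scale against BMEL WT (SE 0.69, adjusted p = 0.0443). Its basal partner Krt5 never exceeded 0.628 CPM in a culture and was not tested. In all, 8 of 17 keratins tested were called between RasHIGH and BMEL WT, 6 higher and 2 lower, against 22.6% of all genes tested (10.9% higher and 11.7% lower), and the median log2 fold change was 0.40 over the keratins and -0.02 over all genes. A keratin entered this test through either group, so the direction of one scarce in the other group was largely set once it was tested. Krt39, Krt23 (17, 10 and 7 counts in BMEL WT), Krt76 (23, 5 and 2) and Krt78 (14, 9 and 12) entered through RasHIGH. Krt14 (1, 6 and 6 counts in RasHIGH) entered through BMEL WT. The split into higher and lower and the median therefore rest in part on the filter. The 8 calls also rest on few libraries. Leaving out BMEL WT 2, BMEL WT 3 or RasHIGH 2 left 1 call, Krt78, and leaving out RasHIGH 3 left 3. BMEL WT 1 and 2 were sequenced in lane 3 and the remaining 7 cultures in lane 4, and with lane as a covariate no keratin was called, with the log2 fold change of Krt78 at 2.45 (adjusted p = 0.133) and that of Krt76 at 6.96 (adjusted p = 0.134).

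At the lower dose the keratins were less resolved. Between RasLOW and BMEL WT, edgeR called 0 of 16 keratins tested against 5.96% of all genes, 5 had an unadjusted p under 0.05 (21.4% of all genes did), and DESeq2 called 2, Krt19 and Krt78. Krt19 was 2808, 2445 and 2194 CPM in RasLOW, all above BMEL WT (log2 fold change 0.57, SE 0.19, adjusted p = 0.125). Krt78 was also above BMEL WT in all 3 RasLOW cultures (log2 fold change 2.67, SE 0.77, adjusted p = 0.0922). Without RasLOW 2, Krt76 was called (log2 fold change 4.24, SE 1.19, adjusted p = 0.049). Between RasHIGH and RasLOW, edgeR called 0 of 17 keratins against 0.0752% of all genes, 2 had an unadjusted p under 0.05 (9.78% of all genes did), and DESeq2 called 1, Krt14 (edgeR log2 fold change -3.15, SE 0.85, adjusted p = 0.24). The group difference in Krt76, Krt79 and Krt78 between RasLOW and RasHIGH was smaller than the spread within either group.

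Genes that work with keratins were counted list by list. Of 15 desmosome and plakin genes tested, which anchor keratin filaments to junctions, 2 were higher and 5 lower in RasHIGH than in BMEL WT. These counts and those of the lists that follow stand against 10.9% of all genes higher and 11.7% lower. Pkp3, a plakophilin, was 0.873, 0.379 and 0.296 CPM in BMEL WT and 2.65, 3.32 and 2.21 CPM in RasHIGH (log2 fold change 2.35, SE 0.46, adjusted p = 0.0124). Evpl, a cross-linker of the cornified envelope, was 8.59, 7.37 and 5.66 CPM in BMEL WT and 0.114, 0.301 and 0.451 CPM in RasHIGH, and fell by 4.68 on the log2 scale (SE 0.47, adjusted p = 0.00102). Of 8 other intermediate filament genes tested, 2 were higher and 2 lower, led by the neurofilament gene Nefl (log2 fold change 3.33, SE 0.33, adjusted p = 0.00106) and by Synm, the muscle filament protein synemin (log2 fold change -4.71, SE 0.49, adjusted p = 0.00119). Of 7 squamous programme genes tested, 1 was higher, the epithelial transcription factor Grhl2 (log2 fold change 4.03, SE 1.08, adjusted p = 0.0364), and 1 lower, the epidermal differentiation factor Zfp750 (log2 fold change -4.30, SE 0.52, adjusted p = 0.00206). Trp63, the master factor of squamous epithelium, never exceeded 0.175 CPM in a culture. Mesothelial markers were present in BMEL WT, with Wt1 at 13.9, 11.9 and 12.3 CPM, and 5 of 6 tested were lower in RasHIGH, where Wt1 was 0.190, 0.0431 and 0.271 CPM. Their part in the keratin differences was not tested.

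Tumour cells were compared with cultured RasHIGH cells at both sites. Low-level type I keratins, Krt23 and Krt12 among them, were higher in tumour cells, while the type II genes Krt76, Krt79 and Krt80 were lower. Krt23 was 23.5, 10.6, 19.4 and 11.3 CPM in liver tumour cells of mice 1 to 4 and 36.3, 20.4, 14.6 and 75.0 CPM in peritoneal tumour cells. All 8 libraries were above the RasHIGH cultures (log2 fold changes 2.80, SE 0.56, adjusted p = 0.00392 in the liver, and 3.99, SE 0.78, adjusted p = 0.00602 in the peritoneum). Krt20, by far the most abundant of the keratins that rose at both sites, was 300, 284 and 346 CPM in RasHIGH, 611, 405, 664 and 525 CPM in liver tumour cells, and 659, 550, 756 and 381 CPM in peritoneal tumour cells. Neither site overlapped RasHIGH, with log2 fold changes of 0.83 (SE 0.17, adjusted p = 0.00479) and 0.94 (SE 0.22, adjusted p = 0.0136), the peritoneal call being lost without RasHIGH 2 (adjusted p = 0.0555).

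Krt12 was 0.910, 0.689 and 0.451 CPM in RasHIGH, 7.85, 2.54, 4.27 and 3.81 CPM in liver tumour cells, and 6.21, 4.67, 5.34 and 3.69 CPM in peritoneal tumour cells. Its log2 fold change was 2.75 (SE 0.45, adjusted p = 0.00146) in the liver and 2.87 (SE 0.36, adjusted p = 0.000966) in the peritoneum. Krt13, the mucosal partner of Krt4, was 0.644, 0.947 and 0.541 CPM in RasHIGH, 3.76, 4.47, 3.15 and 2.88 CPM in liver tumour cells, and 2.68, 1.85, 1.31 and 2.40 CPM in peritoneal tumour cells. The sites did not overlap RasHIGH for Krt13 (log2 fold changes 2.33, SE 0.30, adjusted p = 0.000434, and 1.55, SE 0.40, adjusted p = 0.0179), and its peritoneal call was lost without RasHIGH 3 (adjusted p = 0.0697). Krt27, an inner root sheath keratin, had 1, 5 and 5 counts in RasHIGH and 37 to 149 counts in the 8 tumour cell libraries, with log2 fold changes of 3.90 (SE 0.51, adjusted p = 0.000452) and 3.68 (SE 0.64, adjusted p = 0.0037). Its neighbour Krt26 had 0, 0 and 1 counts in RasHIGH and 10 to 81 counts in tumour cells. The promoters of Krt12 (chr11:99422210-99422509), Krt27 (chr11:99351069-99351368) and the downstream start of Krt13 (chr11:100120528-100120827) are shown as examples of type I genes that rose together, from the same source, all on the minus strand and with the same motifs in capitals.
Krt12: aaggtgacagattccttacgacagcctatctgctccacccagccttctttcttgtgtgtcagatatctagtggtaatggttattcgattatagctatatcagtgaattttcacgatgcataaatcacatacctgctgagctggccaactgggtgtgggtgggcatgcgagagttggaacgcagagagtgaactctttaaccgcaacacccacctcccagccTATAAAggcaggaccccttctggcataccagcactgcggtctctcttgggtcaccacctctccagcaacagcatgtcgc
Krt27: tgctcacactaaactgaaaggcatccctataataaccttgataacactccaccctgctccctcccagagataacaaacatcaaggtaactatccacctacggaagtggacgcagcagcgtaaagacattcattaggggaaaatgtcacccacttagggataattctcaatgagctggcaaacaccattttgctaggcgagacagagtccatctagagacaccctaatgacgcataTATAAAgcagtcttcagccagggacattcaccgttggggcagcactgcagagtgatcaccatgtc
Krt13: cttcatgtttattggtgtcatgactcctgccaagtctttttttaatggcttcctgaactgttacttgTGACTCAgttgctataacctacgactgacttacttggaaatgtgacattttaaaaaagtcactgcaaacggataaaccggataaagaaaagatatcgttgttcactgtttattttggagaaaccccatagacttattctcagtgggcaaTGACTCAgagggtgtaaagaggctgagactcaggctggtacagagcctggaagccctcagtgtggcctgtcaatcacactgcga
TATAAA begins 29 bases before the start in Krt12 and 15 bases before it in Krt27 and is absent from the Krt13 window, which holds TGANTCA at 183 and 34 bases before the start.

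Krt76 fell the most, having been tested through its level in RasHIGH. It was 0.0456, 0.226, 0.364 and 0.192 CPM in liver tumour cells and 0.687, 0.217, 0.192 and 0.517 CPM in peritoneal tumour cells, all under the lowest RasHIGH culture (1.78 CPM), with log2 fold changes of -5.61 (SE 0.81, adjusted p = 0.00076) and -4.64 (SE 0.80, adjusted p = 0.00361). Krt79 was 2.60, 3.31, 3.79 and 3.33 CPM in liver and 6.43, 5.30, 2.86 and 3.03 CPM in peritoneal tumour cells (log2 fold changes -2.60, SE 0.42, adjusted p = 0.0014, and -2.15, SE 0.50, adjusted p = 0.012). Krt78, their neighbour, was 1.53 to 1.91 CPM in liver and 1.29 to 3.31 CPM in peritoneal tumour cells and was called at neither site, so the 3 genes, high in the same cultures, did not have the same calls in tumours. Krt80, a type II keratin made in many epithelia, was 8.22, 23.6 and 28.9 CPM in RasHIGH, 7.09, 6.47, 6.94 and 7.90 CPM in liver tumour cells, and 7.65, 4.46, 4.21 and 5.17 CPM in peritoneal tumour cells. All tumour libraries were under all RasHIGH cultures (log2 fold changes -1.51, SE 0.36, adjusted p = 0.00857, and -1.89, SE 0.41, adjusted p = 0.00927).

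The hepatic pair differed little from culture. Krt8 was 4255, 3158, 3968 and 4228 CPM in liver tumour cells, overlapping RasHIGH, and 4618, 4420, 5370 and 4084 CPM in peritoneal tumour cells, above RasHIGH without overlap (log2 fold change 0.62, SE 0.15, adjusted p = 0.0123). Krt18 was higher than in RasHIGH in peritoneal tumour cells (log2 fold change 0.48, SE 0.11, adjusted p = 0.0128) and was not called in liver tumour cells (log2 fold change 0.31, SE 0.11, adjusted p = 0.0518). Krt19 was 2354, 2228, 2354 and 2297 CPM in liver and 2810, 1875, 2227 and 2630 CPM in peritoneal tumour cells, overlapping RasHIGH at both sites, and was not called. In all, 10 of 19 keratins tested were called in liver tumour cells (45.1% of all genes were, 23% higher and 22.1% lower) and 12 of 19 in peritoneal tumour cells (37.9%, 19.3% higher and 18.6% lower). By type, 7 type I keratins were higher and 0 lower in the liver while 0 type II were higher and 3 lower, and in the peritoneum 8 type I were higher and 0 lower while 1 type II, Krt8, was higher and 3 lower. A keratin entered these tests through either group, so the direction of one scarce in RasHIGH or in tumour cells was set once it was tested. Among the type I keratins called higher, Krt26 (0, 0 and 1 counts in RasHIGH), Krt27 (1, 5 and 5) and, in the liver, Krt33b (3, 5 and 2) were of this kind. Among the type II keratins called lower, Krt76 was too. It had 2, 8, 12 and 6 counts in liver and 22, 8, 10 and 14 in peritoneal tumour cells. The contrast between the types therefore rests in part on the filter. Both comparisons share the RasHIGH cultures. Leaving out RasHIGH 1, the culture low in Krt7, Krt76, Krt79, Krt78 and Krt80, left the liver count at 14, the only library whose omission raised it above 10.

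**Figure D3:**
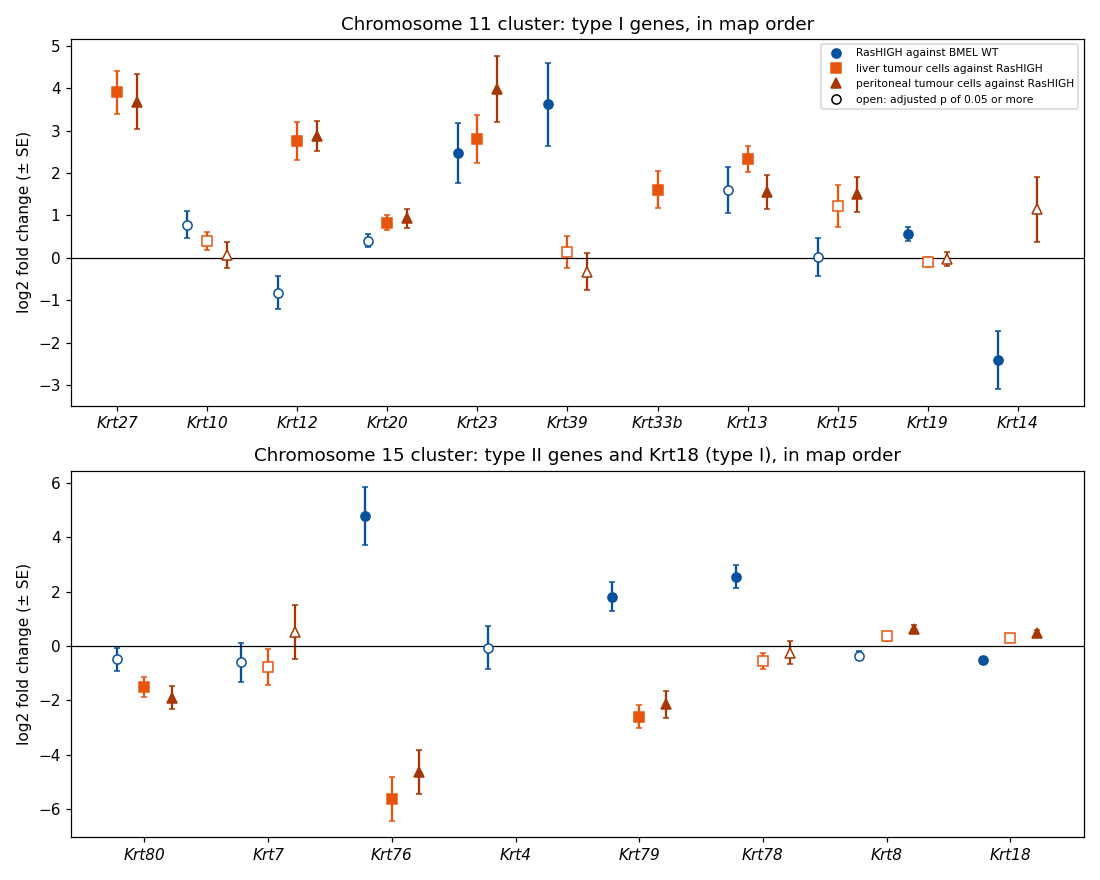
Log2 fold change with its SE for named keratins in map order on chromosome 11 (top) and chromosome 15 (bottom), in RasHIGH against BMEL WT and in tumour cells of either site against RasHIGH. Filled symbols have an adjusted p under 0.05, a missing symbol was not tested, and Krt76 and Krt79 are above 0 in RasHIGH against BMEL WT and below 0 in both tumour comparisons.

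The tumour libraries differ from cultures in lane, so lane and group cannot be told apart there, and they hold some RNA of host cells. The summed level of 10 leukocyte markers was 43.7 to 57.4 CPM in RasHIGH, 69.9 to 89.1 CPM in liver tumour cells, 67.2 to 288 CPM in peritoneal tumour cells and 6473 to 10970 CPM in stroma, and for example Lyz2, a macrophage gene, was 0 in RasHIGH and 4.38 to 91.1 CPM in tumour cells. The summed level of 10 fibroblast and stellate markers was 1.17 to 1.74 CPM in RasHIGH, 41.8 to 63.0 CPM in liver and 221 to 1527 CPM in peritoneal tumour cells, the highest being mouse 1. The keratins that rose at both sites (Krt12, Krt13, Krt20, Krt23, Krt26 and Krt27) were each lower in stroma than in tumour cells of every mouse, and Krt80, which fell, was higher in stroma. The part of host RNA in the differences between tumour cells and RasHIGH was not tested. Of 15 desmosome and plakin genes tested, 5 were higher and 4 lower in liver tumour cells than in RasHIGH, and 7 higher and 3 lower in the peritoneum, where 45.1% and 37.9% of all genes were called. Col17a1, the hemidesmosome collagen, was 0.0379 to 0.0861 CPM in RasHIGH, 2.90 to 4.45 CPM in liver tumour cells and 1.25 to 2.72 CPM in peritoneal tumour cells (log2 fold changes 6.03, SE 0.40, adjusted p = 1.99e-05, and 5.11, SE 0.55, adjusted p = 0.000541). Its RasHIGH level was under 3 counts (0.114 to 0.135 CPM in RasHIGH). It entered the tests through tumour cells, so its direction was set once it was tested. Grhl2 was 2.20, 1.68 and 0.496 CPM in RasHIGH and 0.156 to 0.768 CPM in tumour cells (log2 fold changes -1.43, SE 0.50, adjusted p = 0.0454, and -2.41, SE 0.55, adjusted p = 0.0117).

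Between liver and peritoneal tumour cells of the same 4 mice, the test called 0 of 19 keratins with edgeR and 0 with DESeq2. With edgeR 3.2% of all genes were called, so that a count of 0 is near the background, and 3 had an unadjusted p under 0.05 (20.2% of all genes did). Krt13 was higher in the liver without overlap (log2 fold change 0.79, SE 0.28, adjusted p = 0.148), and Krt23 and Krt8 were lower in the liver on average, with overlap (16.2 against 36.6 CPM for Krt23 and 3902 against 4623 CPM for Krt8, adjusted p = 0.193 and 0.239). Krt7 was 2.40, 1.81, 1.97 and 5.02 CPM in liver and 18.2, 4.92, 1.34 and 2.44 CPM in peritoneal tumour cells (adjusted p = 0.348). The peritoneal library of mouse 1, which held the most Krt7, also held the most leukocyte and fibroblast marker RNA among tumour cells. Without it, Krt80 was called higher in the liver (log2 fold change 0.63, SE 0.15, adjusted p = 0.0372).

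Stroma was low in the simple keratins and high in a few others. Against tumour cells of the same site, 18 of 18 keratins tested were called in the liver, 14 higher and 4 lower in tumour cells (77.8% of all genes were called, 38.4% higher and 39.4% lower), and 14 of 19 in the peritoneum, 11 higher and 3 lower (76.6% of all genes, 39.5% higher and 37.1% lower). A keratin entered these tests through either group, so that one high in tumour cells was bound to be tested. The median log2 fold change of tumour cells against stroma was 2.54 over the liver keratins (0.0036 over all genes) and 3.38 over the peritoneal ones (0.07 over all genes), and scaling by DESeq2's size factors moved the peritoneal median of all genes by -0.139. Krt8 was 545, 447, 546 and 641 CPM in liver stroma and 357, 267, 356 and 458 CPM in peritoneal stroma. All stromal libraries were far under all tumour cell libraries, with log2 fold changes of 2.81 (SE 0.14, adjusted p = 4.7e-09) and 3.75 (SE 0.19, adjusted p = 1.08e-06).

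Set against tumour cells of the same mouse, Krt8, Krt18, Krt19 and Krt20 stood at similar median ratios in stroma within each site, as did Krt23 in the liver. In the liver the stroma level was a median of 14.0% of the tumour cell level for Krt8 (12.8% to 15.2% over the 4 mice), 14.96% for Krt18, 13.5% for Krt19, 12.7% for Krt20 and 13.8% for Krt23. In the peritoneum it was 7.18% for Krt8 (6.05% to 11.2%), 7.25% for Krt18, 7.10% for Krt19, 7.11% for Krt20 and 11.5% for Krt23. In peritoneal mouse 4 the ratios parted, at 11.2% for Krt8, 12.3% for Krt18, 7.84% for Krt19 and 14.9% for Krt20. The epithelial transcription factor gene Sox9, which is not a keratin, stood at 15.4% for liver tumours and 10.0% for peritoneal ones, but other epithelial genes stood elsewhere, the adhesion gene Cdh1 at 40.0% and 24.8% and the tight junction gene Cldn4 at 221.8% and 64.1%. The composition of keratin counts was also close, Krt8, Krt18, Krt19 and Krt20 taking 39.7%, 24.4%, 23.2% and 5.34% in liver stroma and 43.1%, 24.5%, 25.7% and 6.07% in liver tumour cells. Whether stromal cells or tumour cell RNA carried these transcripts was not tested, and in sorted bulk samples fewer cells of a type and less RNA per cell cannot be told apart.

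Other keratins did not follow that ratio. Krt80 was 69.0, 65.0, 88.5 and 105 CPM in liver stroma and 37.3, 45.3, 42.6 and 35.9 CPM in peritoneal stroma, and all of these were above every tumour cell library. Only RasLOW 1, at 39.2 CPM, reached into this range among cultures. In stroma Krt80 stood at a median of 1140% of the tumour cell level in the liver and 854% in the peritoneum (log2 fold changes of tumour cells against stroma -3.55, SE 0.16, adjusted p = 1.55e-09, and -2.84, SE 0.20, adjusted p = 4.97e-06). Krt7, the type II keratin of bile ducts and mesothelium, was 5.77, 8.49, 13.5 and 8.17 CPM in liver stroma, above all 4 liver tumour cell libraries and at a median of 355% of the tumour cell level (log2 fold change -1.71, SE 0.35, adjusted p = 0.000741). In peritoneal stroma Krt7 was 12.2, 17.1, 3.22 and 5.12 CPM, overlapping tumour cells, and was not called (adjusted p = 0.658), but it was called without the tumour cell library of mouse 1 (log2 fold change -1.73, SE 0.64, adjusted p = 0.0344). Krt14 was 1.55, 2.70, 6.32 and 1.15 CPM in liver stroma and 5.86, 13.9, 1.04 and 2.33 CPM in peritoneal stroma, against at most 0.598 CPM in tumour cells (log2 fold changes -4.74, SE 0.85, adjusted p = 0.000286, and -3.75, SE 0.87, adjusted p = 0.00371).

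Krt76 and Krt4 were the remaining keratins higher in stroma. Krt76 was 0.446, 0.807, 1.09 and 0.992 CPM in liver stroma (log2 fold change of tumour cells against stroma -2.05, SE 0.51, adjusted p = 0.00304) and was not called in the peritoneum. Its liver call was lost in a fit of all 25 libraries (adjusted p = 0.0617). Krt4 was 0.822, 0.375, 0.901 and 0.659 CPM in peritoneal stroma, above all peritoneal tumour cell libraries (log2 fold change -3.21, SE 0.59, adjusted p = 0.00104). With the mice as blocks, Krt79 was called higher in peritoneal tumour cells (adjusted p = 0.0347, against 0.145 without blocks), and no other keratin call of tumour cells against stroma changed.

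**Figure D4:**
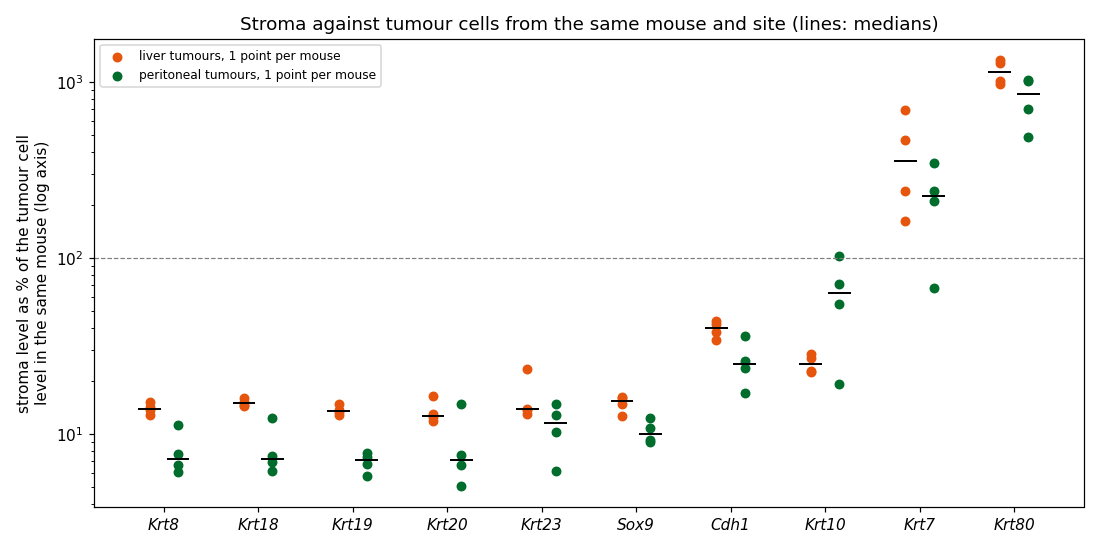
Level in stroma as a percentage of the level in tumour cells of the same mouse and site (log axis), 1 point per mouse and 1 line per median, for 8 keratins and the epithelial genes Sox9 and Cdh1. Krt8, Krt18 and Krt19 cluster at a median of 13.5% to 14.96% in the liver and 7.10% to 7.25% in the peritoneum, and Krt80 lies above 100% in every mouse.

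Mesothelial cells are one host source of simple keratins, and their markers were present in both stromas. Upk3b, a mesothelial uroplakin, was 5.77, 20.8, 23.1 and 8.89 CPM in liver stroma and 11.6, 14.95, 4.47 and 6.67 CPM in peritoneal stroma, against 0.0283 to 0.593 CPM in tumour cells. Its level was lowest in the liver stroma of mouse 1 and in the peritoneal stroma of mouse 3, and Krt7 was lowest in the same libraries of either site. The summed level of the 9 mesothelial markers was also lowest in the liver stroma of mouse 1 (87.9 CPM). In peritoneal stroma that sum was lowest in mouse 4 (126 CPM) and was 138 CPM in mouse 3, so the match of Upk3b with Krt7 did not extend to the list. Wt1 was 15.7 to 28.8 CPM in liver and 40.1 to 70.7 CPM in peritoneal stroma. Of 9 mesothelial markers tested, 7 were higher in stroma and 2 in tumour cells at either site. Of all genes tested, 39.4% were higher in stroma and 38.4% in tumour cells in the liver, and 37.1% and 39.5% in the peritoneum. Msln, the best known of them, was 2.13 higher in liver tumour cells on the log2 scale, so it does not single out mesothelium here. Other epithelial genes were also higher in stroma than in tumour cells. Epcam, an adhesion protein of simple epithelia, was 4.63 to 6.49 CPM in liver and 3.06 to 6.42 CPM in peritoneal stroma and at most 0.128 CPM in tumour cells, and Tgm1, a transglutaminase of squamous epithelium, was 22.1 to 56.8 CPM in stroma and at most 0.749 CPM in tumour cells. The summed level of the 10 leukocyte markers was 8658 to 10970 CPM in liver and 6473 to 8242 CPM in peritoneal stroma, and that of the 10 fibroblast and stellate markers was 4137 to 8387 CPM and 54740 to 83160 CPM. Which of these cells carried Krt80, Krt7 and Krt14 was not tested.

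One stromal library held a set of epidermal keratins. In the peritoneal stroma of mouse 2, Krt5 was 12.6 CPM (269 counts), and it had 0 counts in the other 7 stromal libraries. The same library had the highest Krt14 (13.9 CPM), Krt15 (2.95 CPM) and Krt79 (5.16 CPM) of the 8 stromal libraries, and Krt17 and Krt1, which are below the naming level and were picked out after their values were seen, stood there at 3.33 and 2.34 CPM and at 0.410 CPM or less in the other 7. The desmosomal cadherins of stratified epithelium were highest there too, with Dsc3 at 1.69, Dsg3 at 0.750 and Dsg1a at 0.422 CPM, against at most 0.0776, 0.139 and 0 CPM in the other 7. Trp63 was 0.562 CPM there and at most 0.104 CPM in the other 7. The lists from which these genes come did not single out this library. Their summed level there was 891 CPM for the squamous programme (815 to 1082 CPM in the other peritoneal stroma libraries). For desmosome and plakin genes it was 1036 CPM (961 to 1233 CPM in the others). The peritoneal tumour cells of mouse 2 were the only tumour cell library with Krt5 counts (0.163 CPM). Without the stromal library of mouse 2, 17 in place of 14 keratins were called between peritoneal tumour cells and stroma, as Krt10 (log2 fold change 1.37, adjusted p = 0.00944), Krt15 (3.95, adjusted p = 0.000126) and Krt79 (3.34, adjusted p = 0.001) were added. Krt14 stayed lower in tumour cells without it (log2 fold change -2.85, adjusted p = 0.00794).

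The last comparison was between the stromas of the 2 sites. Krt8, Krt18, Krt19 and Krt80 were higher in liver than in peritoneal stroma. These were the 4 called of 12 keratins tested, a share near the background of 33.4% of all genes (14.9% higher and 18.5% lower). Krt7 and Krt23 were not called, at 8.99 and 2.47 CPM on average in liver stroma and 9.39 and 3.53 CPM in peritoneal stroma (adjusted p = 0.885 and 0.324). Krt80 differed the most (log2 fold change 0.97, SE 0.15, adjusted p = 0.000974), and its 4 liver libraries (lowest 65.0 CPM) were all above the peritoneal ones (highest 45.3 CPM). Krt19 was 323, 297, 304 and 339 CPM in liver stroma and 208, 108, 151 and 206 CPM in peritoneal stroma, without overlap (log2 fold change 0.86, SE 0.19, adjusted p = 0.00623). Krt18 was 331, 298, 337 and 367 CPM in liver and 189, 158, 187 and 259 CPM in peritoneal stroma, again without overlap (log2 fold change 0.70, SE 0.14, adjusted p = 0.0046). Krt8 overlapped (log2 fold change 0.55, SE 0.16, adjusted p = 0.0259), and its call was lost without any one of 6 of the 8 libraries, the exceptions being the liver library of mouse 2 and the peritoneal library of mouse 4 (adjusted p from 0.0509 to 0.075 without one of the 6). Without the peritoneal library of mouse 4, 7 keratins were called, Krt20 (adjusted p = 0.0447) and, lower in the liver, Krt10 (adjusted p = 0.0497) among them. With all libraries Krt20 was called only with the mice as blocks (log2 fold change 0.65, SE 0.07, adjusted p = 0.000859, against 0.0517 without). Markers of other cells moved with the site. The summed level of 10 hepatocyte markers was 40.3 to 258 CPM in liver stroma and 0.984 to 3.21 CPM in peritoneal stroma, and all 6 tested were higher in the liver. Of 8 bile duct and general epithelial markers tested, 4 were higher in the liver and 0 lower (summed level 905 to 1452 CPM against 593 to 956 CPM). Of 10 leukocyte markers tested, 6 were higher in the liver, and of 9 fibroblast and stellate markers 8 were lower. Hepatocytes and bile duct cells make Krt8 and Krt18 themselves, and the part of these cells in the keratin differences was not tested.

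The site difference was itself compared between stroma and tumour cells. It was more positive (liver against peritoneum) in stroma for 4 of 20 keratins tested, against 14.3% of all genes (7.5% in that direction and 6.79% in the other). The difference of differences on the log2 scale was 0.95 for Krt18 (SE 0.19, adjusted p = 0.00329), 0.99 for Krt19 (SE 0.24, adjusted p = 0.0124), 0.88 for Krt8 (SE 0.22, adjusted p = 0.0141) and 2.46 for Krt78 (SE 0.72, adjusted p = 0.0338), with a median of 0.12 over all genes. Krt18 and Krt8 were higher in liver than peritoneal stroma, and lower on average in liver than peritoneal tumour cells (2212 against 2468 CPM and 3902 against 4623 CPM). Krt78 rests on 7 counts over the 4 peritoneal stroma libraries, and its call was lost in 13 of 22 alternatives, namely with no count filter and without any one of 12 of the 16 libraries (adjusted p up to 0.0897). It was kept without the liver stroma of mouse 3, the peritoneal stroma of mouse 1, or the peritoneal tumour cells of mouse 2 or 3. With the mice as blocks Krt20 was called as well (log2 difference 0.84, SE 0.26, adjusted p = 0.046).

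Krt10, Krt15 and Krt33b remain to be described. Krt10 was 1.29 to 3.79 CPM in cultures, 2.25 to 5.17 CPM in tumour cells and 0.793 to 4.17 CPM in stroma, and with all libraries was called only between liver tumour cells and liver stroma (log2 fold change 1.94, SE 0.24, adjusted p = 1.56e-05). Krt15, a basal keratin, was 0.324 to 1.15 CPM in cultures and 0.757 to 2.28 CPM in tumour cells, and was higher in peritoneal tumour cells than in RasHIGH (log2 fold change 1.49, SE 0.42, adjusted p = 0.0247). The Krt15 call was lost without RasHIGH 1 (adjusted p = 0.0563), RasHIGH 2 (0.102), or the peritoneal tumour cells of mouse 2 (0.0545) or mouse 4 (0.0514), and in a fit of all 25 libraries (0.181). Krt15 was also called higher in liver tumour cells than in liver stroma. This call was lost without the liver tumour cells of mouse 1 and in a fit of all 25 libraries (adjusted p up to 0.0941). Krt33b, a hair keratin, was at most 1.14 CPM in any library and was higher in liver tumour cells than in RasHIGH (log2 fold change 1.61, SE 0.44, adjusted p = 0.0166). That call was lost without RasHIGH 3 (adjusted p = 0.0663) and in a fit of all 25 libraries (0.079). Of the 25 hair and inner root sheath keratins in the table, 4 reached the naming level and 2 had no count, and of the 20 squamous ones 11 reached it and 2 had no count.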

How the data were processed

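mRNA libraries (NuGEN Universal Plus mRNAseq, HiSeq2500) came from 9 cultures and 16 sorted fractions of 4 mice, and the authors deposited raw counts of reads per gene. The study's methods name TopHat2 and mm9, whereas the submitters' processing notes name FastQC, Bowtie 0.12.2, mm8 and mm10 without roles. The counting program, strand setting and annotation are not given in the sources used here, so overlapping or near-identical keratin genes may share reads.

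Tests used edgeR 4.0.16 and limma 3.58.1 in R 4.3.3 on the libraries of the groups compared: filterByExpr (minimum count 10), TMM scaling, quasi-likelihood test, Benjamini-Hochberg adjustment, called at an adjusted p under 0.05. Levels used TMM factors over all 25 libraries. The procedure was tested on simulated data. The study's methods describe the cultures as independent samples.

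Mouse numbers pair samples, since fractions of a number come from the same animal (mean correlation of deviations 0.224 and 0.194 between tumour cells and stroma in liver and peritoneum, 0.184 between stromas, -0.0402 between tumour cells). Values with mice as blocks stand beside results whose call they change.

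The keratin rule, gene lists and tests were chosen with earlier results of these data known. Named keratins average at least 1 CPM in 1 or more of the 7 groups or are called in a comparison, and other lists give the called member with the largest change in each direction, besides defining markers. Lengths and mm9 positions came from GENCODE vM1, and 36 of 55 keratin genes matched a RefSeq promoter, but not Krt19 and Krt80. Alternatives were DESeq2 1.42.0, RLE scaling, no count filter, the study's thresholds (absolute log2 fold change above 1.5 with unadjusted p under 0.01 in cultures, above 1 with p under 0.05 in sorted cells), 1 fit of all 25 libraries, replicate blocks, lane as a covariate, and leaving out each library.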

Additional observations from a re-analysis of the deposited data

Results flagged for a closer look

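A library stood apart from the other 3 by Dixon's ratio in 10 of 84 combinations of a named keratin with a group of 4 mice. The limit used is passed about 1 in 20 times by normally distributed values. These were CPM, many near 0, and where the other 3 libraries were at 0 the ratio was 1 at any level. The count of 10 therefore cannot be set against that rate. Of the 10, 3 were the peritoneal stroma library of mouse 2, which was far above the other 3 peritoneal stroma libraries in Krt5 (12.6 CPM), Krt79 (5.15 CPM) and Krt15 (2.95 CPM). In peritoneal tumour cells of the same mouse, Krt5 stood apart at 0.163 CPM, the other 3 being at 0.

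The remaining 6 were low-level values. Krt12 was low in the liver stroma of mouse 2 (0.421 CPM). Krt39 and Krt33b stood apart in peritoneal stroma through single libraries with few counts, mouse 4 for Krt39 (0.116 CPM) and mouse 1 for Krt33b (0.0373 CPM). Krt33b was high in the peritoneal tumour cells of mouse 4 (1.14 CPM). Krt15 was high in the liver tumour cells of mouse 1 (2.28 CPM) and low in the peritoneal tumour cells of mouse 3 (0.979 CPM).

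The difference between liver and peritoneum differed between stroma and tumour cells, by the interaction test, for Krt18 (0.949 on the log2 scale), Krt19 (0.994), Krt8 (0.884) and Krt78 (2.46), the last call being lost in 13 of 22 alternatives.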

How the results depend on the processing

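Of 70 called keratin differences recomputed in 991 alternatives, 900 kept direction and call, 91 kept direction without the call and 0 reversed. The number of keratins called moved by over 1.5 times as follows, and the cause was not tested unless the alternative changes the threshold itself. DESeq2 called 2 between RasLOW and BMEL WT and 1 between the Ras populations, both 0 with edgeR. The study's thresholds gave 1, 5 and 1 in the comparisons of RasLOW with BMEL WT, RasHIGH with BMEL WT and RasHIGH with RasLOW, 1 between tumour cells of the sites, 0 between stromas and 2 in the interaction. A fit of all 25 libraries called 4 in RasLOW against BMEL WT and 8 between stromas. Lane as a covariate left 0 of 8 in RasHIGH against BMEL WT.

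Leaving out 1 library at a time gave 0 to 1 calls in RasLOW against BMEL WT, 1 to 6 in RasHIGH against BMEL WT, 0 to 0 in RasHIGH against RasLOW, 0 to 1 between tumour cells, 3 to 7 between stromas, 17 to 19 and 14 to 17 for tumour cells against stroma in liver and peritoneum, 8 to 14 and 10 to 12 for liver and peritoneal tumour cells against RasHIGH, and 3 to 4 in the interaction. The libraries that moved a count by over 1.5 times are named beside the results.

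Culture numbers did not pair the samples (correlations of deviations between -0.691 and 0.354, of both signs), and the replicate block left 3 keratins called in RasHIGH against BMEL WT and 0 in the other culture comparisons. With mice as the replicate block, 0 were called between tumour cells, 5 between stromas, 18 and 15 for tumour cells against stroma in liver and peritoneum, and 5 in the interaction, and no call changed besides those given beside the results. Of 294 levels under other scalings, 289 moved by less than 1 SD.

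Depth limits keratins near 3 counts (0.0576 to 0.141 CPM), which include most hair and inner root sheath members. Groups of 3 cultures, unknown strand handling, host RNA in tumour cell libraries and the lane split limit the other statements.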
